A study of Mus musculus with 12 samples.

Results

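The proteasome subunit genes were followed in Min6 cells, a mouse beta cell line, after 48 h with a FoxO1 inhibitor, with loperamide or with both. The set was every gene whose symbol in the deposited count table is Psm followed by a letter from a to g and a number, leaving out the immunoproteasome genes Psmb8, Psmb9 and Psmb10. It held 45 of 55487 genes, and no measured value was used to choose them. Of these, 43 passed the filter on low counts, and 2 did not: Psma8, the alpha subunit of the testis proteasome, had no count in any library, and Psmb11, the catalytic subunit of the thymus, had at most 2 counts over the 3 libraries of a group. The 45 genes lie on 16 chromosomes.

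The 4 groups had 3 libraries each and share the cell line and the 48 h of treatment. The groups were DMSO, the solvent control; FoxOi, 1 µM AS1842856, an inhibitor of the transcription factor FoxO1; Loperamide, 5 µM of a drug known as an opioid receptor agonist; and FoxOi_Loperamide, both compounds at those doses. RNA was sequenced from stranded mRNA libraries as single reads of 50 bases. All cells are of 1 established line, and nothing in the labels says that a group's libraries came from separate cultures, so the tests measure the spread between these libraries, which may be technical.

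The proteasome is the protease that degrades proteins tagged with ubiquitin chains. Its core, the 20S particle, is a barrel of alpha and beta rings whose beta subunits Psmb5, Psmb6 and Psmb7 carry the active sites. The 19S particle caps the barrel: a base with a ring of ATPases unfolds the substrate, and a lid removes its ubiquitin. The capped barrel is called the 26S proteasome. Other genes of the set encode chaperones that assemble both particles, activators that cap the core in place of the 19S particle, and PI31 (Psmf1), an inhibitor or adaptor of the core. Cells that secrete much protein, beta cells among them, rely on the proteasome to clear misfolded proteins taken back from the endoplasmic reticulum.

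Depth ran from 10640485 to 19499216 counts per library. Markers of beta cells were abundant in every library: the summed level of 8 markers was 61035 to 84669 CPM (counts scaled by library size) in DMSO, 34623 to 39431 in FoxOi, 62698 to 63116 in Loperamide and 26779 to 31575 in FoxOi_Loperamide. The DMSO and Loperamide ranges overlapped, and both groups with the inhibitor lay below them. Ins2 and Iapp led this sum, with DMSO means of 46622 and 18254 CPM. Tested singly with edgeR, Ins1, Iapp and Pdx1, 3 of the 8, were lower with loperamide at an adjusted p under 0.05. With FoxOi and with both compounds 6 were lower, and Slc30a8 and G6pc2 did not pass. Of all genes tested, 15.8%, 20.3% and 23.2% were lower in these 3 comparisons. In a bulk sample, fewer cells of a type and less RNA per cell cannot be told apart. Of the other cell types checked, acinar markers summed to at most 0.326 CPM and endothelial markers to at most 1.49 CPM in any library, and the acinar markers Cpa1, Prss1 and Ptf1a had no count. Fibroblast markers summed to 2.49 to 3.39 CPM in DMSO, 1.37 to 2.15 in FoxOi, 2.96 to 4.31 in Loperamide and 1.13 to 1.40 in FoxOi_Loperamide. The summed level of 5 macrophage and leukocyte markers was 4.48 to 6.01 CPM in DMSO, 21.5 to 22.7 in FoxOi, 4.26 to 4.67 in Loperamide and 7.25 to 7.62 in FoxOi_Loperamide. Cd68 made up most of the difference, with a mean of 2.08 CPM in DMSO and 17.8 in FoxOi, while the macrophage marker Adgre1 and the pan-leukocyte marker Ptprc were at or near 0. With both compounds Cd68 had a mean of 4.54 CPM, above DMSO. Csf1r went the other way there, with 4 counts over the 3 libraries against 26 in DMSO. Lyz2 did not pass against DMSO in any treated group. Markers of alpha cells, led by Ttr and Gcg, summed to 2614 to 3834 CPM in DMSO. The sums were 1816 to 2445 in FoxOi, 394 to 722 in Loperamide and 865 to 1187 in FoxOi_Loperamide, all below DMSO. Ttr was lower in each treated group. Gcg went the other way in FoxOi, with a mean of 1084 CPM against 717 in DMSO. Its mean was 121 in Loperamide and 586 in FoxOi_Loperamide. The part of these shifts in the proteasome results was not tested.

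Levels were first compared between genes in FPKM, the deposited unit that accounts for library size and gene length. In DMSO the genes of the 20S and 19S particles stood at 25.6 to 235 FPKM, the chaperones at 10.7 to 22.1. Psmb6, the subunit with caspase-like activity, had the highest level of the set, 235 ± 31.4 FPKM (SD, n = 3). Psmb7, the subunit with trypsin-like activity, followed with 171 ± 10.7, then Psmb2 with 161 ± 22.4 and Psmb4 with 160.1 ± 25.0, and these 3 did not differ beyond their spread. Psmb5, the subunit with chymotrypsin-like activity, ranked 17 with 85.3 ± 13.3 FPKM. Psmd11 had the lowest level among the particle subunits, 25.6 ± 2.90 FPKM, and Psmd10, an assembly chaperone, the lowest of the genes tested, 10.7 ± 0.762. Means ran from 35.3 to 235 FPKM in the 20S core and from 25.6 to 145 in the 19S particle, as the plot of levels by role shows.

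**Figure D1:**
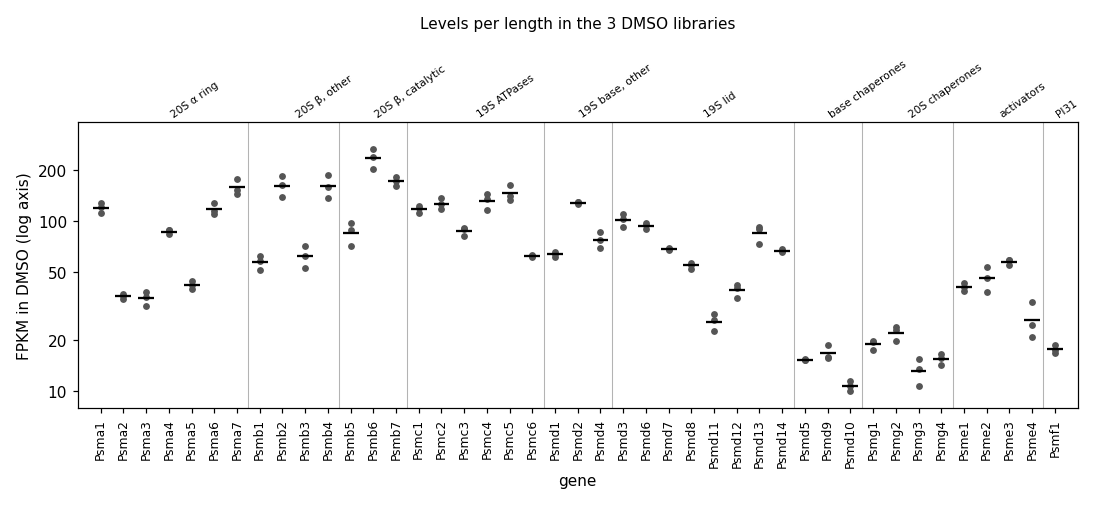
Deposited FPKM of each proteasome subunit gene that passed the count filter, grouped by role along the x axis, on a log y axis; each point is 1 of the 3 DMSO libraries and each black line their mean. The means of the particle subunits, 25.6 to 235 FPKM, lie above those of all chaperones, 10.7 to 22.1 FPKM.

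The summed FPKM of the 45 genes was 3535, 3321 and 3056 in the DMSO libraries, 3399.8, 3119 and 2986 in FoxOi, 2667, 2559 and 2379.9 in Loperamide, and 2959, 2740.1 and 2655 in FoxOi_Loperamide. The Loperamide libraries lay below every DMSO and every FoxOi library, and the FoxOi and DMSO ranges overlapped. As a share of all FPKM in a library, the set took 0.642% ± 0.00807 in DMSO, 0.664% ± 0.0132 in FoxOi, 0.552% ± 0.0166 in Loperamide and 0.598% ± 0.0159 in FoxOi_Loperamide (SD, n = 3). This share also moves with the total of all other genes. Every FoxOi share was above every DMSO share, the closest being 0.6514% and 0.6509%. The mean summed FPKM was lower in FoxOi, 3168 against 3304 in DMSO, so the 2 measures differ in direction there.

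Loperamide lowered most genes of the 20S and 19S particles. Of 43 genes tested against DMSO with edgeR's quasi-likelihood test, 27 fell and 2 rose at an adjusted p under 0.05, and 14 did not pass. Over all 16808 genes tested, 31.9% passed, 15.8% lower and 16.1% higher, against 62.8% of the set lower. The median log2 fold change of the set was -0.35, and that of all genes tested was 0.02. All 27 genes that fell encode subunits of the 26S particle, of which 31 were tested: 13 of 14 in the 20S core and 14 of 17 in the 19S particle. In 31 of the 43 genes the Loperamide and DMSO libraries did not overlap, which was so for 43.1% of all genes tested. Of the 27 falls, 20 were called under each alternative run.

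By role, the fall covered 7 of 7 genes of the alpha ring, 4 of 4 of the beta ring without an active site, 2 of 3 catalytic subunits, 4 of 6 ATPases, 3 of 3 other genes of the base and 7 of 8 of the lid. The particle subunits that did not pass were Psmb5, the ATPase genes Psmc2 and Psmc5, and the lid gene Psmd11, whose log2 fold changes were between -0.30 and -0.22. None of the 3 base chaperones or 4 core chaperones passed. The map of differences from DMSO shows this division between the particles and the remaining genes.

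**Figure D2:**
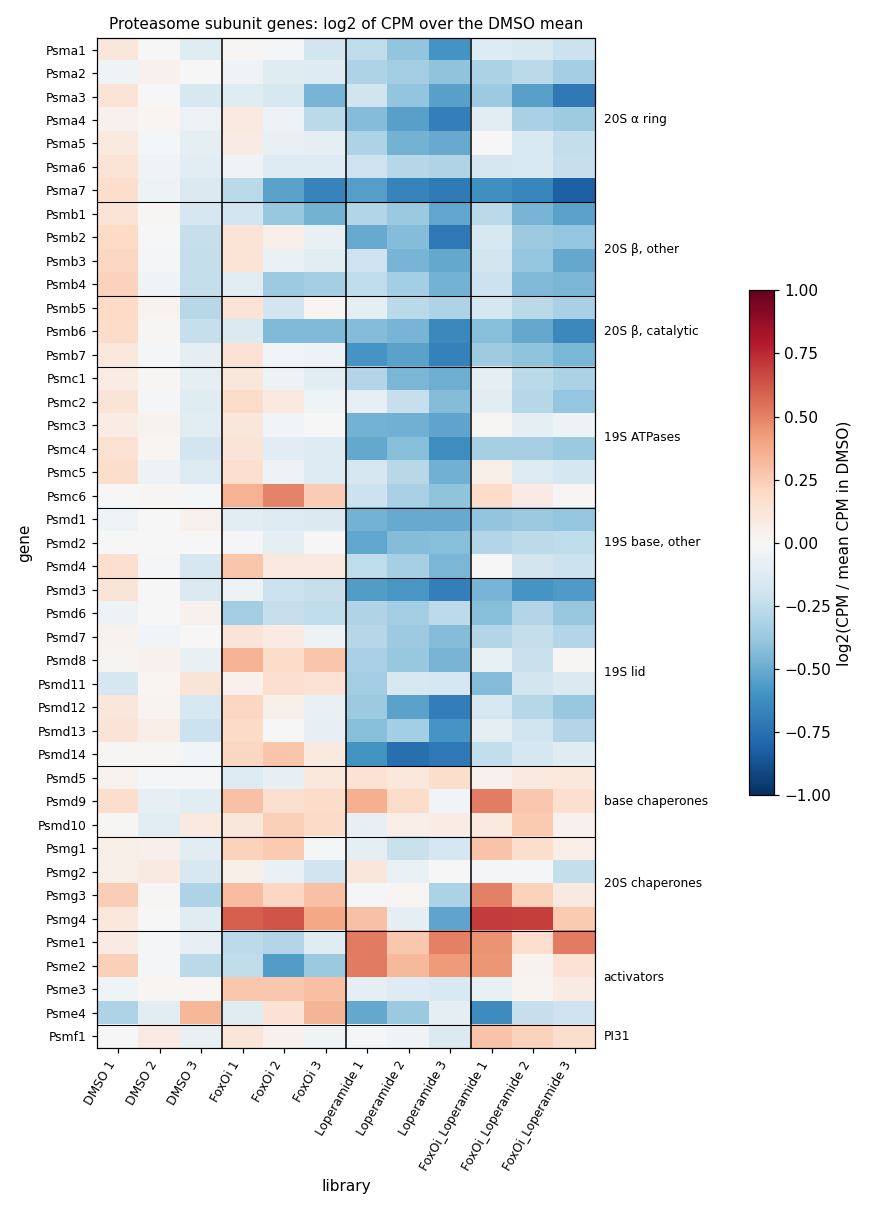
Log2 ratio of CPM in each of the 12 libraries (columns) to the mean CPM of the DMSO libraries for the 43 genes tested (rows, grouped by role), on a colour scale from blue (lower) to red (higher). Values ran from -0.82 to 0.70; the Loperamide columns are blue over the 20S and 19S genes and red for the activators Psme1 and Psme2.

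Psmd14 (ENSMUSG00000026914, chr2:61711694-61800376) encodes the metalloprotease of the lid that cuts ubiquitin chains off the substrate. CPM was 105, 105 and 102 in DMSO, 119.9, 126 and 111 in FoxOi, 68.5, 61.6 and 63.4 in Loperamide, and 87.3, 91.7 and 95.6 in FoxOi_Loperamide. All Loperamide libraries were below all others, and the FoxOi_Loperamide libraries lay between them and DMSO. Loperamide gave the largest fall of the set here, log2 -0.69 ± 0.08 (SE, adjusted p = 1.54e-05). Psma7 (ENSMUSG00000027566, chr2:180036374-180042433) encodes a subunit of the alpha ring, which gates entry to the barrel. The libraries stood at 211, 180.3 and 169 in DMSO, 155, 129 and 118.004 in FoxOi, 127, 117 and 114 in Loperamide, and 122, 119 and 106 in FoxOi_Loperamide (CPM). Each DMSO library was above every library of the treated groups. Its fall with loperamide was log2 -0.64 ± 0.11 (SE, adjusted p = 0.000501).

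Of the catalytic subunits, Psmb6 and Psmb7 fell with loperamide. Psmb6 (ENSMUSG00000018286, chr11:70525367-70527858) encodes the subunit with caspase-like activity. Levels in CPM were 214, 190.0 and 161 in DMSO, 170.0, 138 and 138 in FoxOi, 139, 137 and 121 in Loperamide, and 140.5, 132 and 121 in FoxOi_Loperamide. The Loperamide libraries were all below DMSO, log2 -0.51 ± 0.12 (SE, adjusted p = 0.00358). Psmb7 (ENSMUSG00000026750, chr2:38588036-38644087) also has an exon overlapping Nek6, on the other strand and at 9.34 CPM. In CPM, it measured 215, 198 and 187 in DMSO, 220.3, 196 and 193 in FoxOi, 132, 138 and 125 in Loperamide, and 156, 151 and 145 in FoxOi_Loperamide. Here the Loperamide libraries were the lowest and did not overlap with DMSO, log2 -0.60 ± 0.08 (SE, adjusted p = 7.72e-05). Psmb5 (ENSMUSG00000022193, chr14:54614119-54618022) did not pass. Its CPM was 88.7, 79 and 63.8 in DMSO, 84.9, 67.6 and 78.4 in FoxOi, 72.2, 64.1 and 62.2 in Loperamide, and 68.1, 64.1 and 61.8 in FoxOi_Loperamide. The groups overlapped, and the value for loperamide was log2 -0.22 ± 0.12 (SE, adjusted p = 0.171). Whether Psmb5 differed in its response from Psmb6 or Psmb7 was not tested.

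The stretches before the start of these genes are shown because Psmd14, Psma7 and Psmb6 were each lower with loperamide, while Psmb5 did not pass. With FoxOi, Psma7 and Psmb6 fell, and Psmd14 stood at log2 0.19 ± 0.08 (SE, adjusted p = 0.0592). They are taken from RefSeq on GRCm38.p6 and end where the gene of the deposited table begins, or at the RefSeq start where that comes first. Psmd14 is at chr2:61711494-61711693 (plus strand), Psma7 at chr2:180042465-180042664 (minus), Psmb6 at chr11:70525157-70525356 (plus) and Psmb5 at chr14:54618023-54618195 (minus). All are written 5′ to 3′ on the strand of the gene. Capitals mark a match to a CCAAT box (CCAAT, or ATTGG on the other strand) in the first pair, and to the core of the antioxidant response element (TGACNNNGC), the motif read by NRF1 and NRF2, in the second.
Psmd14: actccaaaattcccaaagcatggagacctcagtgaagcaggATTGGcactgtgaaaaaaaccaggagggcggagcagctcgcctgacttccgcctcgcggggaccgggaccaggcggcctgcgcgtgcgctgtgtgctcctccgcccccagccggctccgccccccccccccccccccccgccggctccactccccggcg
Psma7: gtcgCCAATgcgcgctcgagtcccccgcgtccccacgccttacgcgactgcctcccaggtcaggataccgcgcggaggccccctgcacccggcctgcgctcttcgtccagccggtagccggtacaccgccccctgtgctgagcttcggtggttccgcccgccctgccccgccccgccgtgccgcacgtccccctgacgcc
Psmb6: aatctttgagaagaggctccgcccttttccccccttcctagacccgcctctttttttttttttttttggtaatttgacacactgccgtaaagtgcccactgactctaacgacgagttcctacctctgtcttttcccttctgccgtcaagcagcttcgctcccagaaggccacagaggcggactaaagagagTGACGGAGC
Psmb5: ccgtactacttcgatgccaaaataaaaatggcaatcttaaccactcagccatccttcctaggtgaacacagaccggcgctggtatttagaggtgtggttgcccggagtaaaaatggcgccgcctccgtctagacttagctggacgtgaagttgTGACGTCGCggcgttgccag
Matches were counted on both strands in the 250 bases before each RefSeq start, for the 37 members that had such a window. The core TGACNNNGC was in 5 of the 37 (13.5%), namely Psmb5, Psmb6, Psmc6, Psmd12 and Psmd9. It was in 11.5% of the 27025 genes with a window and in 13.9% of the 10861 of these that were tested. CCAAT was in 13 of 37 (35.1%), in 37.5% of all genes and in 41.1% of those tested. The core of the interferon-stimulated element, TTTC followed after any 2 bases by TTTC, was in Psmb3, Psmd4 and Psmd9 (8.11%). It was in 3.46% of all genes and in 2.96% of those tested. The gamma-activated site, TTCNNNGAA, was in Psmg1 (2.7%), in 8.13% of all genes and in 6.91% of those tested. Of the 21 members with a window that fell with loperamide, 9 held CCAAT and 3 held TGACNNNGC, and of the other 16, 4 and 2. Psmb11, which was not tested, is among those 4. Motifs were counted separately, matches may overlap, and a match is one of letters only.

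Among the other subunits of the 19S particle, Psmd4 (ENSMUSG00000005625, chr3:95032694-95042614) encodes a receptor that binds the ubiquitin chain. CPM was 161, 141 and 127 in DMSO, 173, 153 and 153 in FoxOi, 120.0, 114 and 104 in Loperamide, and 143, 126 and 123.4 in FoxOi_Loperamide. All Loperamide libraries were below all DMSO libraries, log2 -0.35 ± 0.10 (SE, adjusted p = 0.0172). The adjusted p was 0.0608 without DMSO library 1 and 0.0753 without Loperamide library 3. Psmd3 (ENSMUSG00000017221, chr11:98682554-98695979) is a structural gene of the lid. The libraries stood at 239.9, 219.6 and 199 in DMSO, 212, 189 and 187 in FoxOi, 149, 147 and 137 in Loperamide, and 159, 146 and 148 in FoxOi_Loperamide (CPM). Both groups with loperamide lay below DMSO and FoxOi without overlap, log2 -0.61 ± 0.09 (SE, adjusted p = 0.000109). Psmc3 (ENSMUSG00000002102, chr2:91054009-91066369) encodes one of the ATPases. Levels in CPM were 189, 184 and 166 in DMSO, 195, 177 and 179 in FoxOi, 129.5, 129 and 125 in Loperamide, and 181, 169 and 174 in FoxOi_Loperamide. Its Loperamide libraries were the lowest, log2 -0.49 ± 0.08 (SE, adjusted p = 0.000239), and the FoxOi_Loperamide libraries overlapped with DMSO. The other genes that fell had log2 fold changes from -0.55 (Psma4) to -0.26 (Psma6).

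The genes of PA28 moved the other way. Psme1 and Psme2 encode the subunits of PA28, a cap that opens the core without ATP and is known to be induced by interferon. Psme1 (ENSMUSG00000022216, chr14:55578123-55581529) encodes its alpha subunit and has an exon overlapping Emc9, on the other strand and at 9.92 CPM. In CPM, it measured 48.6, 45.6 and 43.4 in DMSO, 38.2, 37.3 and 42.1 in FoxOi, 65.8, 55.2 and 65 in Loperamide, and 62.5, 51.5 and 65.7 in FoxOi_Loperamide. Its libraries with loperamide were all above those without, log2 0.44 ± 0.11 (SE, adjusted p = 0.00591). Psme2 (ENSMUSG00000079197, chr14:55587441-55591113) rose with loperamide alone. Its CPM was 53.1, 44.8 and 37.3 in DMSO, 37.9, 30.6 and 34.9 in FoxOi, 64.8, 56.5 and 60.5 in Loperamide, and 61.2, 46.1 and 49.9 in FoxOi_Loperamide. The Loperamide libraries were above DMSO without overlap, log2 0.42 ± 0.13 (SE, adjusted p = 0.0255). It no longer passed on leaving out DMSO library 2 (adjusted p = 0.0804), DMSO library 3 (0.1226), Loperamide library 1 (0.0878) or Loperamide library 3 (0.06). In each of these 4 cases Psme1 was the only gene of the set called higher. Reads of Psme2 may be shared with its near copy Psme2b, which had 2736 counts over the 12 libraries.

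The nuclear activators did not share this rise. Psme3 (ENSMUSG00000078652, chr11:101316213-101323537) encodes a cap of the core in the nucleus. CPM was 149.7, 157 and 157 in DMSO, 186, 187 and 191 in FoxOi, 145, 142 and 139 in Loperamide, and 147, 157 and 164 in FoxOi_Loperamide. Its level with loperamide was 0.12 lower on the log2 scale and did not pass (adjusted p = 0.21). Psme4 (ENSMUSG00000040850, chr11:30771726-30880361) encodes PA200, a large nuclear activator. The libraries stood at 138, 159 and 216 in DMSO, 158, 189 and 217 in FoxOi, 119.9, 132 and 159.8 in Loperamide, and 111, 145 and 148 in FoxOi_Loperamide (CPM). Here the Loperamide and DMSO libraries overlapped, and the value for loperamide was log2 -0.32 ± 0.18 (SE, adjusted p = 0.192). The FoxOi_Loperamide libraries lay below those of FoxOi without overlap, at log2 -0.48, and this did not pass. Psmf1 (ENSMUSG00000032869, chr2:151715812-151744186) encodes PI31. Levels in CPM were 70.3, 74.8 and 67 in DMSO, 76.7, 72.7 and 68.9 in FoxOi, 70.3, 68.8 and 63.9 in Loperamide, and 86.3, 83.1 and 79.7 in FoxOi_Loperamide. The Loperamide and DMSO libraries overlapped, log2 -0.06 ± 0.08 (SE, adjusted p = 0.585). The plot of CPM in single libraries sets Psme1 and Psme2 beside subunits of the particles.

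**Figure D3:**
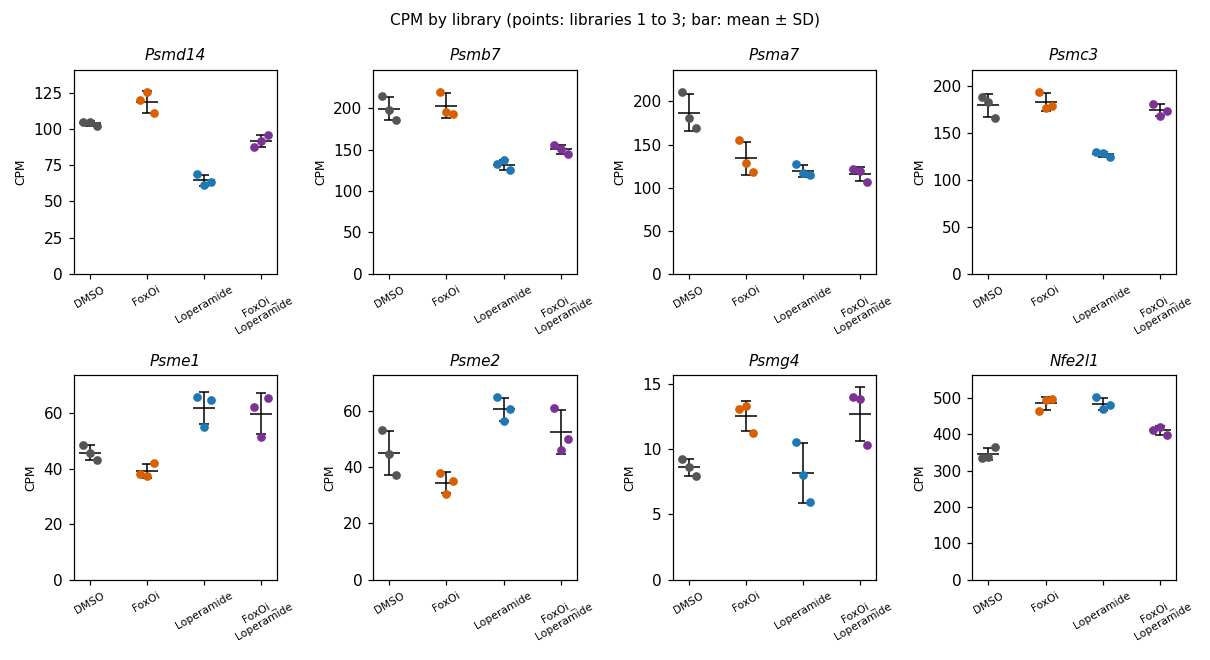
CPM (y axis, from 0, own scale in each panel) of Psmd14, Psmb7, Psma7, Psmc3, Psme1, Psme2, Psmg4 and Nfe2l1, the gene of the factor NRF1, by group (x axis); each point is 1 library, and black bars give the mean ± SD of 3. Loperamide libraries lie lowest for Psmd14, Psmb7 and Psmc3, and both groups with loperamide lie highest for Psme1.

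FoxOi alone moved few of these genes, in both directions. Against DMSO, 4 rose and 5 fell, and 34 did not pass. Over all genes tested 40.9% passed, 20.7% higher and 20.3% lower, against 9.30% and 11.6% of the set, and the set's median log2 fold change was -0.004. In the 20S core 3 of 14 genes fell and none rose, and in the 19S particle 2 of 17 rose and 1 fell. In 11 of the 43 genes the groups did not overlap, against 48.4% of all genes tested. The set's median was -0.091 without DMSO library 3, with 13 genes above 0 and 30 below, and -0.075 without FoxOi library 1, with 12 above and 31 below.

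The genes that fell with FoxOi were Psma7, Psmb1, Psmb6, the lid gene Psmd6 and Psme2. The Psma7 libraries, given above, did not overlap with DMSO, log2 -0.48 ± 0.11 (SE, adjusted p = 0.00283). Those of Psme2 overlapped, log2 -0.39 ± 0.13 (SE, adjusted p = 0.0315), and those of Psmb6 overlapped too, log2 -0.34 ± 0.11 (SE, adjusted p = 0.0278). The call of Psmb6 was lost without DMSO library 1 (adjusted p = 0.0843), DMSO library 2 (0.0611), FoxOi library 2 (0.108) or FoxOi library 3 (0.102), and that of Psme2 without the same 4 libraries (0.106, 0.0593, 0.131 and 0.0642). Psmb1 was lost without FoxOi library 2 (0.0587) or FoxOi library 3 (0.0778).

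The genes that rose with FoxOi were the ATPase gene Psmc6, the lid gene Psmd8, the core chaperone gene Psmg4 and Psme3. Psmc6 (ENSMUSG00000021832, chr14:45329788-45349705) encodes one of the ATPases of the base. In CPM, it measured 139, 141 and 138 in DMSO, 177.7, 197 and 167 in FoxOi, 121, 111 and 105 in Loperamide, and 158, 148 and 141 in FoxOi_Loperamide. The FoxOi libraries were the highest and the Loperamide libraries the lowest, and neither overlapped with DMSO; with FoxOi the change was log2 0.37 ± 0.08 (SE, adjusted p = 0.00267) and with loperamide log2 -0.31 ± 0.09 (SE, adjusted p = 0.0119), a call lost without Loperamide library 3 (adjusted p = 0.0568). Psmg4 (ENSMUSG00000071451, chr13:34162964-34178173) encodes a chaperone of the alpha ring. Its CPM was 9.27, 8.65 and 7.92 in DMSO, 13.1, 13.3 and 11.3 in FoxOi, 10.5, 8.05 and 5.97 in Loperamide, and 14, 13.9 and 10.3 in FoxOi_Loperamide. Both groups with the inhibitor lay above DMSO without overlap, with FoxOi by log2 0.54 ± 0.18 (SE, adjusted p = 0.0232). Psmg4 no longer passed on leaving out DMSO library 2 (adjusted p = 0.0761), DMSO library 3 (0.0864), FoxOi library 1 (0.0775) or FoxOi library 2 (0.0745). Psmd8 rose, log2 0.27 ± 0.08 (SE, adjusted p = 0.017), a call lost without DMSO library 1 (0.0525), DMSO library 3 (0.101) or FoxOi library 1 (0.1104). Psme3 rose, log2 0.28 ± 0.07 (SE, adjusted p = 0.00533).

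With both compounds the particle subunits were again the genes that fell. Against DMSO, 4 genes rose and 15 fell, all 15 in the 26S particle: 9 of 14 in the 20S core and 6 of 17 in the 19S particle. Over all genes tested 45.5% passed, 22.3% higher and 23.2% lower, against 34.9% of the set lower, and the set's median log2 fold change was -0.22. The largest falls were those of Psma7, log2 -0.69 ± 0.11 (SE, adjusted p = 0.000141), and Psmd3, log2 -0.54 ± 0.09 (SE, adjusted p = 0.000155). The genes that rose were Psmg4, log2 0.56 ± 0.18 (SE, adjusted p = 0.0177), Psme1, log2 0.39 ± 0.11 (SE, adjusted p = 0.00788), the base chaperone gene Psmd9, log2 0.33 ± 0.12 (SE, adjusted p = 0.0346), and Psmf1, log2 0.23 ± 0.08 (SE, adjusted p = 0.028). Leaving out DMSO library 3, FoxOi_Loperamide library 1 or FoxOi_Loperamide library 2 left 1 of these 4 calls. Psme1 kept its call under each alternative run, while the highest adjusted p among alternatives was 0.0681 for Psmg4, 0.162 for Psmd9 and 0.116 for Psmf1.

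The comparisons with DMSO share their control libraries, so their calls are given side by side. Over all genes tested 40.9% passed with FoxOi, 31.9% with loperamide and 45.5% with both. The joint patterns below were not counted over all genes, so whether they are unusual was not tested. Psma7, Psmb1, Psmb6 and Psmd6 were lower in all 3. Lower with loperamide and with both compounds, and not called with FoxOi, were 11 genes: Psma2, Psma3, Psmb2, Psmb3, Psmb4, Psmb7, Psmc4, Psmd1, Psmd2, Psmd3 and Psmd7. Lower with loperamide alone were 10: Psma1, Psma4, Psma5, Psma6, Psmc1, Psmc3, Psmd4, Psmd12, Psmd13 and Psmd14. Psmc6 and Psmd8 were higher with FoxOi, lower with loperamide and not called with both. Psme2 was lower with FoxOi, higher with loperamide and not called with both. In 10 genes no comparison with DMSO passed, among them Psmb5 and the core chaperone genes Psmg1, Psmg2 and Psmg3. The plot of log2 fold changes sets the 3 values of each gene beside each other.

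**Figure D4:**
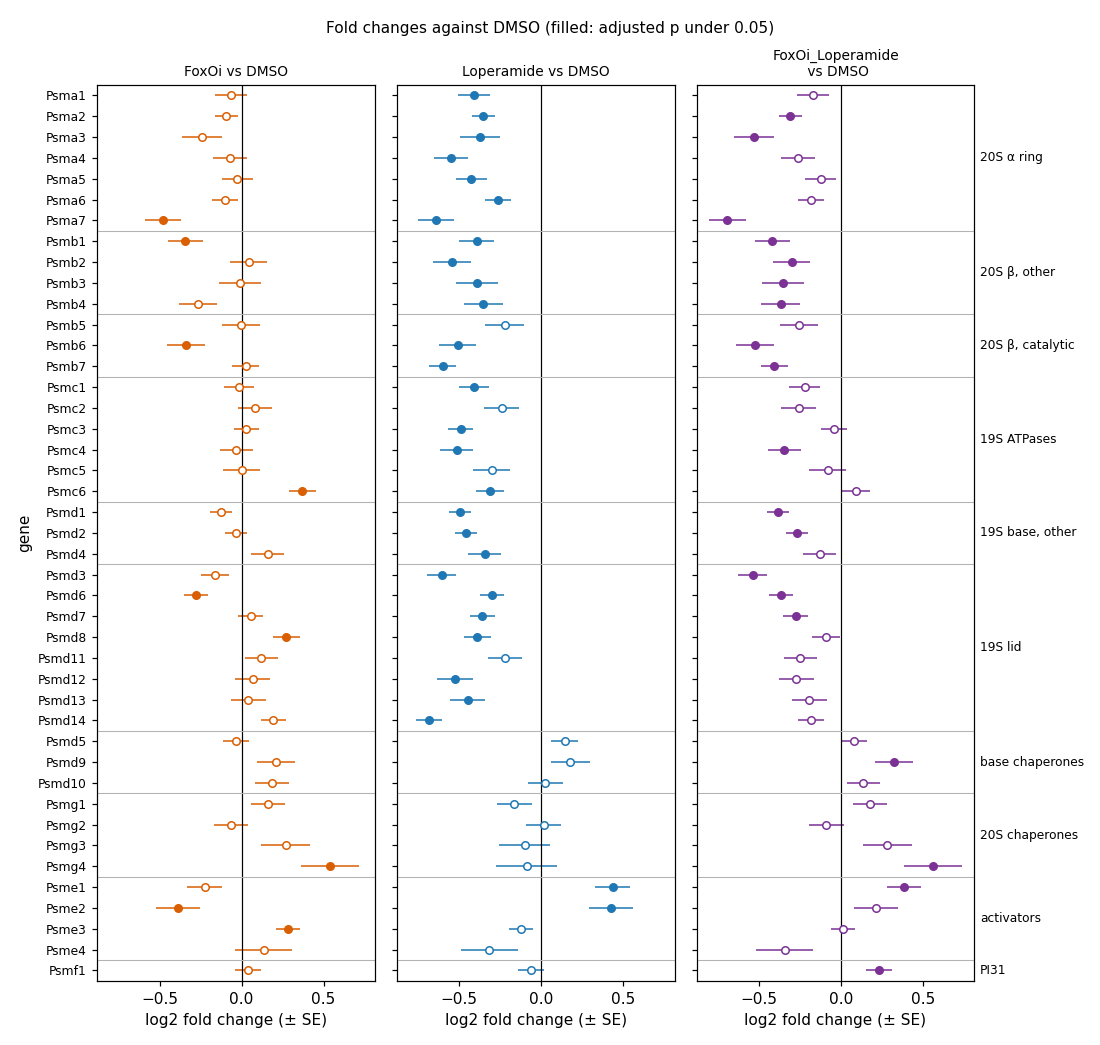
Log2 fold change against DMSO (x axis, with bars of 1 SE) of the 43 genes tested (y axis, grouped by role), for each treated group; filled points passed at an adjusted p under 0.05 with edgeR. Most particle subunits lie left of 0 with loperamide, and Psme1 and Psme2 lie right of it.

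Compared with FoxOi, FoxOi_Loperamide had 16 genes lower and 2 higher. Over all genes tested 26.6% passed, 15.1% lower and 11.5% higher, against 37.2% of the set lower. The falls covered 12 of 17 genes of the 19S particle and 3 of 14 of the 20S core, and the remaining gene was Psme3, log2 -0.27 ± 0.07 (SE, adjusted p = 0.0115), a call lost without FoxOi_Loperamide library 1 (adjusted p = 0.0601). The largest were Psmb7, log2 -0.43 ± 0.08 (SE, adjusted p = 0.00128), and Psmd14, log2 -0.38 ± 0.08 (SE, adjusted p = 0.00228). Psme1 and Psme2 rose, log2 0.61 ± 0.11 (SE, adjusted p = 0.000545) and log2 0.61 ± 0.13 (SE, adjusted p = 0.00367). The number that fell depended on single libraries: it was 8 without DMSO library 2 or FoxOi library 1, and 9 without FoxOi library 2, FoxOi_Loperamide library 2 or FoxOi_Loperamide library 3.

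Compared with Loperamide, FoxOi_Loperamide had 10 genes higher and none lower. Over all genes tested 38.9% passed, 18.4% higher and 20.5% lower, against 23.3% of the set higher. At an unadjusted p under 0.05, 0 of the set were lower, and DESeq2 called 0. A fit with the library number as a replicate block did call some lower, as given in the last section. The genes that rose were Psma4, Psma5, Psmc3, Psmc6, Psmd2, Psmd8, Psmd14, Psmf1, Psmg1 and Psmg4. Psmg4 had the largest rise, log2 0.65 ± 0.18 (SE, adjusted p = 0.0106), followed by Psmd14, log2 0.51 ± 0.08 (SE, adjusted p = 0.000166), Psmc3, log2 0.45 ± 0.08 (SE, adjusted p = 0.000365), and Psmc6, log2 0.41 ± 0.09 (SE, adjusted p = 0.00166). The call of Psmg4 was lost without Loperamide library 3 (adjusted p = 0.0562). The number that rose was 4 without Loperamide library 3 and 6 without Loperamide library 2 or FoxOi_Loperamide library 1. Reads of Psma5 may be shared with its pseudogene Psma5-ps, which had 3488 counts over the 12 libraries.

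Whether the inhibitor changed the effect of loperamide was tested directly as an interaction: the log2 change from FoxOi to FoxOi_Loperamide, less the log2 change from DMSO to Loperamide. Psmc3 was the one gene of the set that passed, log2 0.42 ± 0.11 (SE, adjusted p = 0.0243), against 9.48% of all genes tested (3.66% higher and 5.82% lower). Loperamide changed it by -0.49 without the inhibitor and by -0.07 with it. The call was lost without DMSO library 2 (adjusted p = 0.0523), FoxOi library 2 (0.0639), FoxOi library 3 (0.0579), Loperamide library 3 (0.0607) or FoxOi_Loperamide library 1 (0.0615). An exon of Psmc3 overlaps Slc39a13 on the other strand, which stood at 25.9 CPM, and the strand setting of the counting is not given in the sources used here. Neither Psma7, log2 0.43 ± 0.16 (SE, adjusted p = 0.103), nor Psmd14, log2 0.31 ± 0.11 (SE, adjusted p = 0.0968), passed. The median interaction of the set was 0.18 on the log2 scale, and that of all genes tested was -0.02.

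Within each group the 20S genes shared a spread between libraries. The library numbered 1 had the highest CPM of its group in 13 of the 14 core genes in DMSO, 14 in FoxOi, 12 in Loperamide and 12 in FoxOi_Loperamide. Over all genes tested, that library was the highest for 35.6% to 44.6% of genes. The median core gene deviated from its group mean by 0.143 in DMSO library 1 and by -0.145 in DMSO library 3, on the log2 scale. The 19S genes did so less evenly, with 10 to 12 of 17 highest in library 1. Compared within a number, all 27 genes that fell with loperamide were lower in each of the 3 numbers, with a median log2 ratio of -0.43, -0.44 and -0.41. These genes were picked as lower in the same libraries, so this gives no separate support for their fall. Of all 43 genes, 35 were lower with loperamide in all 3 numbers and 4 were higher. The same count was not made over all genes tested. The labels do not say what the numbers stand for.

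Other genes of the pathway were taken from lists of known partners. Of 12 partners outside the naming rule that were tested, 5 fell and 2 rose with loperamide, where 15.8% and 16.1% of all genes did. Pomp, the chaperone of core maturation, fell, log2 -0.47 ± 0.12 (SE, adjusted p = 0.00658). Its CPM was 93, 81.1 and 77.6 in DMSO, 103, 87.6 and 86.7 in FoxOi, 67.1, 62.3 and 52.8 in Loperamide, and 84.9, 75.1 and 68.2 in FoxOi_Loperamide. Uchl5, a deubiquitinase of the base, fell (log2 -0.61 ± 0.11 (SE, adjusted p = 0.000676)), and so did the lid peptide Sem1 (log2 -0.23 ± 0.08 (SE, adjusted p = 0.0345)). Adrm1, a ubiquitin receptor that recruits Uchl5, did not pass (log2 -0.24 ± 0.10 (SE, adjusted p = 0.0953)). With both compounds, Pomp, Uchl5 and Sem1 did not pass against DMSO, and each was higher than with loperamide alone. With FoxOi, 6 of the 12 rose and 2 fell, where 20.7% and 20.3% of all genes did. The largest rise was that of Zfand2a, the stress-induced proteasome partner AIRAP, log2 2.39 ± 0.08 (SE, adjusted p = 1.7e-10). Its CPM was 76.5, 69.5 and 68.4 in DMSO, 379.8, 365 and 381 in FoxOi, 65.4, 66 and 60.8 in Loperamide, and 173, 149.8 and 161 in FoxOi_Loperamide. The FoxOi libraries were the highest, those with both compounds came next, and Loperamide and DMSO were lowest and did not overlap.

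The inducible catalytic subunits, which replace the standard ones in the immunoproteasome, were low. Psmb8 had a CPM of 2.24, 2.68 and 2.2 in DMSO, 2.56, 1.98 and 3.38 in FoxOi, 4.75, 4.79 and 6.61 in Loperamide, and 3.92, 2.25 and 4.94 in FoxOi_Loperamide. The Loperamide libraries were above DMSO, log2 1.18 ± 0.28 (SE, adjusted p = 0.00451). Psmb9, which had a CPM of 0.767, 0.809 and 1.03 in DMSO, 0.697, 0.604 and 0.769 in FoxOi, 2.33, 2.96 and 1.58 in Loperamide, and 1.31, 1.81 and 1.403 in FoxOi_Loperamide, rose too, log2 1.40 ± 0.29 (SE, adjusted p = 0.00186). Psmb10 had a CPM of 10.3, 9.27 and 6.16 in DMSO, 9.76, 9.11 and 8.97 in FoxOi, 12.1, 9.5 and 11.8 in Loperamide, and 11.1, 7.06 and 8.78 in FoxOi_Loperamide, and its groups overlapped (log2 0.37 ± 0.19 (SE, adjusted p = 0.164)). In DMSO these genes stood at 1.45 ± 0.169, 0.639 ± 0.106 and 6.50 ± 1.59 FPKM (SD, n = 3), against 85.3 for Psmb5, the lowest of the 3 standard catalytic subunits.

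Of the genes that control proteasome transcription, NRF1 (Nfe2l1) is the factor known to raise proteasome genes when the proteasome is inhibited. Nfe2l1 had a CPM of 336, 337 and 365 in DMSO, 465, 495 and 496 in FoxOi, 502, 469.5 and 482 in Loperamide, and 413, 421 and 399 in FoxOi_Loperamide. All treated libraries were above DMSO, and the single-compound groups were highest. It rose with loperamide, log2 0.49 ± 0.07 (SE, adjusted p = 0.00013), and with FoxOi, log2 0.49 ± 0.07 (SE, adjusted p = 7.3e-05), and with both by less, log2 0.25 ± 0.07 (SE, adjusted p = 0.0106). The interaction was log2 -0.73 ± 0.10 (SE, adjusted p = 0.00036). Ngly1, the glycanase that processes NRF1, fell with loperamide, log2 -0.53 ± 0.09 (SE, adjusted p = 0.000542), while Ddi2, the protease that does so too, did not pass, log2 0.25 ± 0.11 (SE, adjusted p = 0.0866). In all, 4 of 10 genes of this list rose with loperamide and 2 fell, where 16.1% and 15.8% of all genes did. With FoxOi 6 rose and 2 fell, where 20.7% and 20.3% of all genes did. The falls were near the share of all genes in both comparisons.

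Genes that act upstream of the proteasome were counted in the same way, against the 15.8% of all genes lower and 16.1% higher with loperamide. Of 11 shuttle factors and p97 genes tested, 6 fell and none rose with loperamide. Vcp, the p97 ATPase that extracts ubiquitylated proteins, had a CPM of 447, 443 and 435 in DMSO, 354, 352 and 345 in FoxOi, 278, 285 and 283 in Loperamide, and 271, 279 and 271 in FoxOi_Loperamide. All treated libraries were below DMSO, with loperamide by log2 -0.65 ± 0.07 (SE, adjusted p = 4.76e-06). Of the ubiquitin and E1 genes, 1 of 6 fell, a share near that of all genes: Uba1, the main ubiquitin-activating enzyme, log2 -0.56 ± 0.07 (SE, adjusted p = 2.49e-05). The COP9 signalosome, a complex related to the lid in structure, had 6 of 10 genes lower with loperamide and none higher, and 6 lower and 2 higher with both compounds, where 23.2% and 22.3% of all genes passed. Cops5, its catalytic subunit, changed by log2 -0.42 ± 0.11 (SE, adjusted p = 0.0086) with loperamide.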

How the data were processed

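The authors deposited raw counts per gene and FPKM values for 12 libraries; per the submitters' processing notes STAR 2.7.5a, Picard 2.19.2, DESeq2 and the builds GRCm38 and mm10 were used. The counting tool, its annotation and strand setting were not stated in the sources used here; all 45 gene locations equal those of GENCODE M21. The count test was that of edgeR 4.0.16, run in R 4.3.3 (TMM, filterByExpr by group with a minimum count of 10 and total of 15, robust quasi-likelihood fit of all 12 libraries on the group). An adjusted p is Benjamini-Hochberg over all 16808 genes tested, and a gene was called under 0.05. SE was computed as the size of the log2 fold change over the square root of F. CPM are per TMM-scaled library size. Deposited FPKM served to compare levels between genes.

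Chi-square per degree of freedom between libraries of a group was 5.34 to 33.5, so none was counted as a repeat. Alternatives were RLE scaling, no count filter, DESeq2 1.42.0, a replicate block, only the groups compared, limma 3.58.1 on log2(FPKM + 1 or + 0.1), and leaving out each library. The test was tried on simulated counts. Named with values in each library were Psmb5, Psmb6, Psmb7, Psmd4, Psmd14, Psme1 to Psme4, Psmf1 and, per comparison, the 2 strongest called rises and the 2 strongest called falls; of the pathway lists, Nfe2l1, Pomp, Psmb8, Psmb9, Psmb10, Zfand2a and Vcp. Adrm1 and, of the called genes with the smallest adjusted p, Uchl5, Ngly1 and Uba1 are given by their fold change; Sem1, Ddi2 and Cops5 were chosen after their values were seen. The genes and lists were chosen with earlier results of these data known.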

Additional observations from a re-analysis of the deposited data

Results flagged for a closer look

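The effect of loperamide differed with and without the inhibitor in 5 genes of the set and the pathway lists, by the interaction in edgeR. They were 1 of the 43 genes of the set, 1 of the 12 partners and 3 of the 10 genes that control proteasome transcription. No gene of the other pathway lists passed. For Psmc3, an ATPase of the 19S base, the effect was 0.42 higher on the log2 scale with the inhibitor than without (0.4207 ± 0.11 SE, adjusted p = 0.0243). For Nfe2l1, which encodes NRF1, it was lower, -0.7267 ± 0.10. The partner gene Zfand2a had -1.062 ± 0.12. Of the small Maf factors, which pair with NRF1, Maff had -1.648 ± 0.24 and Mafk -0.7543 ± 0.14. Over all genes tested, 9.48% passed this test.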

How the results depend on the processing

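The fall of proteasome subunit genes with loperamide kept its direction and stayed within 1.5 times of its 27 genes under each alternative run. The lowest count was 20 genes, without Loperamide library 3, and the highest 32, with the library number as a replicate block. For loperamide that block called 48.7% of all genes tested, higher and lower together, against 31.9% in the main fit. No called gene of the set changed direction in any alternative.

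Other counts moved by more. For FoxOi, the 4 rises became 2 without the count filter and 2 to 5 with single libraries left out, and the 5 falls became 3 in a fit of only the groups compared, 3 on log2(FPKM + 1) without a filter and 2 to 7 with single libraries left out. On that FPKM scale, 1 gene rose with loperamide in place of 2, 1 rose with both compounds in place of 4, and 8 fell in FoxOi_Loperamide against FoxOi in place of 16. With single libraries left out these 3 counts were 1 to 2, 1 to 4 and 8 to 16. For FoxOi_Loperamide against Loperamide the 10 rises became 16 in a fit of only the groups compared and 4 to 13 with single libraries left out. The interaction gave 2 genes without the filter, 4 with DESeq2 and 0 to 2 with single libraries left out, in place of 1. It was not run in a fit of only the groups compared, since it uses all 4. The causes were not tested.

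With the library number as a replicate block, 8 genes rose and 10 fell with FoxOi, 26 fell with both compounds against DMSO, 25 fell in FoxOi_Loperamide against FoxOi, 21 rose and 2 fell against Loperamide, and 14 had a positive interaction. The block also raised the share of all genes called. It was 56.1% for FoxOi, 59.0% for both compounds, 44.6% against FoxOi, 53.6% against Loperamide and 25.8% for the interaction. These shares count higher and lower genes together, unlike the counts of the set by direction. Of all genes called, 51.8%, 50.3%, 48.5%, 48.2% and 44.3% were higher, in the same order. In the other counts the block moved the calls by less. The libraries share only a number as far as the labels say: deviations from the group means correlated at 0.0915 to 0.507 between libraries of 1 number (17 of 18 pairs over 0.1) and at -0.469 to 0.105 between numbers, and each of the 12 libraries correlated best with its own number, a hint from the data and not the design. At a depth of 10640485 to 19499216 counts, Psma8 with no count and Psmb11 with at most 2 counts in a group were not tested.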
